A study of Mus musculus with 16 samples.

Results

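Described here are the nuclear genes for the last 3 complexes of mitochondrial oxidative phosphorylation: complex III with its carrier cytochrome c, complex IV and complex V. They were taken from the deposited gene table by symbol, without use of any measured value. The rule kept the Uqcr genes, Cyc1 and Cycs, the Cox4 to Cox8 families and all genes starting with Atp5. It found 44 of the 17737 genes in the table: 9 for complex III, Cycs alone for cytochrome c, 17 for complex IV and 17 for complex V. All 44 passed the filter on low counts and were tested.

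The samples were ventricles of 16 male C57BL/6 mice, obtained at 6 weeks of age and kept for 6 months on 1 of 4 diets, with 4 animals per diet. Chow was a standard rodent diet, NIA and UW were primate diets, and mNIA was the NIA diet changed so that its sucrose and fat matched UW. The mice carried no named allele, and each library came from 1 animal. The titles of the samples and their library codes disagree for the 3 primate-formula groups, so which of these groups ate which formula was not settled. Samples titled NIA carry MNC codes, those titled UW carry NC codes and those titled mNIA carry UC codes. Groups are named here by title, and the mean of the 3 formulas minus chow does not depend on the naming.

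The respiratory chain passes electrons from carrier to carrier in the inner mitochondrial membrane and pumps protons as it does so. Complex III (ubiquinol-cytochrome c reductase) hands electrons to cytochrome c, complex IV (cytochrome c oxidase) gives them to oxygen, and complex V (ATP synthase) lets protons back through a rotating ring to make ATP. The heart depends on this route for most of its ATP and is among the tissues richest in mitochondria. A few subunits are encoded by the mitochondrial genome, of which the table lists no gene, so only nuclear subunits are described. Complex IV also has pairs of isoforms, 1 found widely and 1 found mainly in heart and skeletal muscle.

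Total counts per library ran from 2278250 in NIA replicate 4 to 63005490 in NIA replicate 2, and from 3143385 to 6583532 in the other 14. All 7 cardiomyocyte markers were present in every library, with a summed level of 42456 to 97031 CPM (counts per 10⁶) over all 16 animals. The 4 brown adipocyte markers in the table summed to 21.6 to 40.1 CPM, of which Cidea alone gave 21.4 to 39.9 CPM, while Elovl3 and Plin1 were at 0 in 12 and 9 libraries. The 3 white adipocyte markers in the table summed to at most 0.67 CPM. The 4 skeletal muscle markers in the table summed to 1510 to 2709 CPM. Of this, Ckm gave 1311 to 2322 CPM and Acta1 149 to 396 CPM, while Myh1 and Tnnt3 reached at most 0.59 and 1.71 CPM. The 5 erythrocyte markers had a median sum of 4263 CPM in NIA (1874 to 7270), 3649 in chow (2393 to 6144), 2249 in mNIA (1538 to 4530) and 1762 in UW (1166 to 3379). The part of other cell types in the levels below was not tested. In bulk tissue, fewer cells of a type and less RNA per cell cannot be told apart. Counts were also simulated for all 16 libraries, with the same spread for every gene and with changes set in UW against chow. Of the changed genes, 38% of 100 changed 2-fold and 100% of 100 changed 4-fold were called, with 6 unchanged genes called. The spread of the NIA animals was not simulated.

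4 libraries stood apart in an earlier analysis of these counts, where they had low quality weights: chow replicate 3, NIA replicates 1 and 4 and mNIA replicate 2. For the respiratory genes, NIA replicate 4 was the most extreme. It held the highest level among the 16 libraries for 40 of 44 members, namely 8 of 9 in complex III, Cycs, 16 of 17 in complex IV and 15 of 17 in complex V. Over all tested genes the same library was highest in 23.8%. Member genes summed to 92726 CPM after scaling in NIA replicate 4 and to between 25297 and 42990 CPM in any other library. These sums are not shares of the counts, since scaled CPM do not add up to the same total in every library. The scaling factor, by which CPM are divided, was 0.62 in NIA replicate 4 and 0.76 to 1.25 elsewhere. Scaling thus raised the CPM of all genes most in NIA replicate 4, and the gap in these sums includes this. The medians of the complexes, the isoform ratios and the leading genes of contrasts with NIA are therefore also given without this animal.

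**Figure D1:**
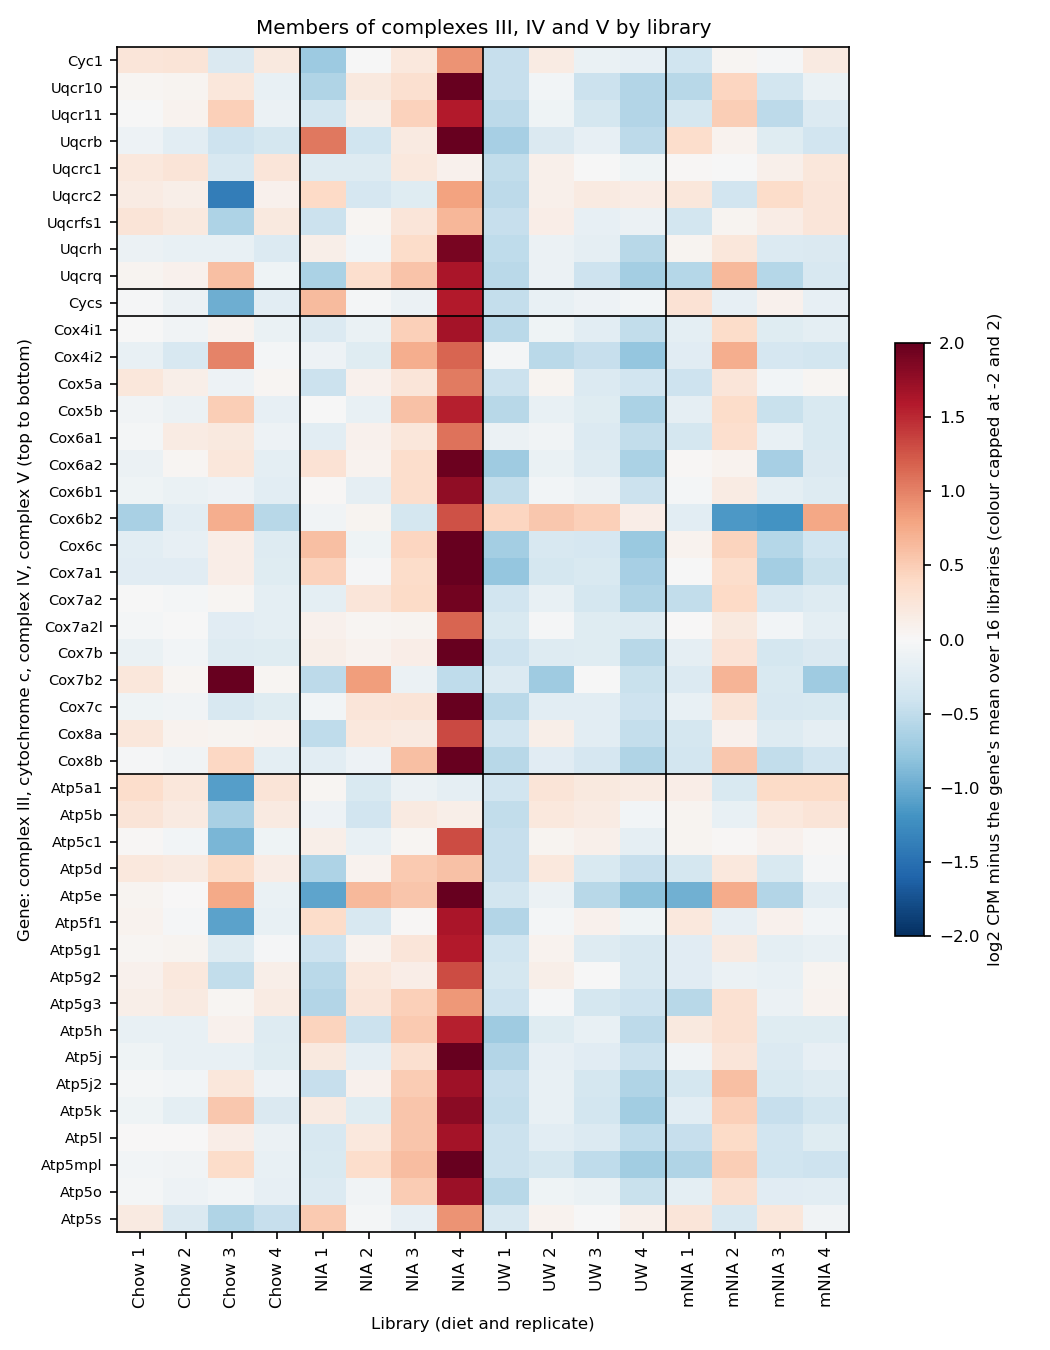
Level of each of the 44 genes (rows, grouped by complex) in each of the 16 libraries (columns, grouped by diet), as log2 CPM minus the gene's mean over all libraries, with colour capped at 2 in each direction. NIA replicate 4 is the darkest column, and chow replicate 3 combines low and high genes.

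The level of a complex in a library was taken as the median over its members of log2 CPM minus each gene's mean. For complex III it was 0.05, 0.09, -0.29 and -0.08 in chow, -0.37, -0.01, 0.25 and 1.58 in NIA, -0.50, -0.06, -0.17 and -0.52 in UW, and -0.35, 0.07, -0.24 and -0.13 in mNIA, in replicate order. The NIA group ran from within the range of the other diets to far above it, and the remaining groups overlapped one another.

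For complex IV the level was -0.07, -0.07, 0.14 and -0.20 in chow, -0.08, 0.05, 0.35 and 1.67 in NIA, -0.42, -0.15, -0.24 and -0.50 in UW, and -0.20, 0.33, -0.33 and -0.29 in mNIA. For complex V it was 0.05, -0.02, -0.05 and -0.12 in chow, -0.28, -0.03, 0.48 and 1.59 in NIA, -0.46, -0.03, -0.22 and -0.43 in UW, and -0.22, 0.24, -0.23 and -0.14 in mNIA. The 3 complexes thus ran in parallel over most libraries, which share one scaling per library. By this median chow was the tightest group, with SDs of 0.17, 0.14 and 0.07 for complexes III, IV and V (n = 4). In NIA they were 0.85, 0.80 and 0.83. By summed CPM chow was the tightest for complex IV only. For complexes III and V the SDs of the sums were 314 and 758 CPM in mNIA, against 657 and 2975 in chow.

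**Figure D2:**
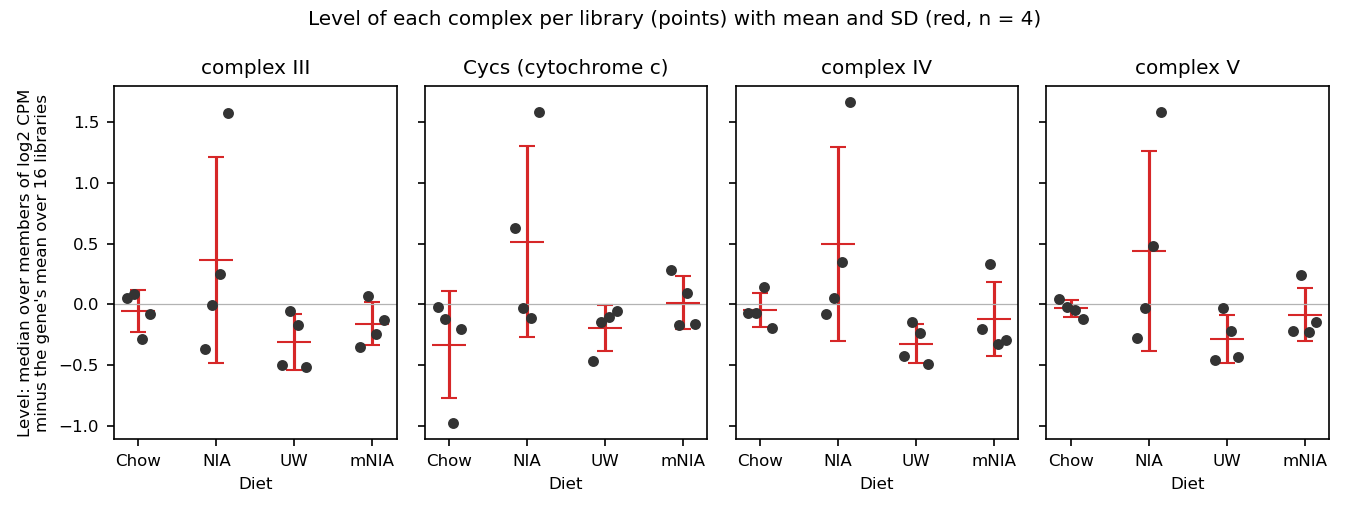
Level of each complex per library on the log2 scale (points), with the mean and SD of each diet in red (n = 4). The single high NIA point between 1.58 and 1.67 in every panel is replicate 4.

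No member differed between diets in edgeR's quasi-likelihood test. At an adjusted p of 0.05 the number of members called was 0 in NIA minus chow, UW minus chow, UW minus NIA, mNIA minus NIA, mNIA minus UW and the mean of the 3 formulas minus chow, and 0% of all 13381 tested genes were called in any of these. In mNIA minus chow 0.00747% of the tested genes, that is 1 gene and no member, passed. A joint test for any diet difference called 0 members and 0% of all genes. At an unadjusted p under 0.05 it listed 21 members, with 6.88% of all genes listed by the same rule.

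In NIA minus chow, 39 of 44 members had a higher estimate in NIA, with a median log2 fold change of 0.67 over the members and -0.01 over all tested genes. The medians were 0.51 for complex III, 0.68 for complex IV and 0.68 for complex V. At an unadjusted p under 0.05, 17 members were higher and 0 lower, where 6.53% of all genes were higher. Without NIA replicate 4, 28 members had a higher estimate, the medians were -0.01, 0.12 and 0.18, and 1 member was higher at an unadjusted p under 0.05, where 2.31% of all genes were higher in that fit. The NIA and chow ranges did not overlap for 4 members, Uqcrh, Cox7a2l, Cox7b and Cox7c, all higher in NIA, with 1.32% of all genes in that state.

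UW minus NIA gave the largest medians. In UW 41 of 44 members had a lower estimate, with medians of -1.01 for complex III, -0.98 for IV and -0.80 for V, and -0.98 over all members against 0.00 over all genes. At an unadjusted p under 0.05, 30 members were lower, where 8.71% of all genes were lower. The ranges did not overlap for 10 members, of which 8 belonged to complex IV (Cox5b, Cox6a2, Cox6c, Cox7a1, Cox7a2l, Cox7b, Cox7c and Cox8b), beside Uqcrh and Atp5mpl. The background for such separation was 3.06% of all genes. Without NIA replicate 4, 38 members had a lower estimate, the medians were -0.37, -0.47 and -0.35, and 13 members were lower at an unadjusted p under 0.05, where 4.16% of all genes were lower in that fit.

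In mNIA minus NIA 41 members had a lower estimate in mNIA, with medians of -0.74, -0.77 and -0.66 for complexes III, IV and V. Of these, 20 were lower at an unadjusted p under 0.05, where 5.65% of all genes were lower, and 0 were separated from NIA without overlap, where 0.882% of all genes were. Without NIA replicate 4 the medians were -0.14, -0.23 and -0.15, and 0 members passed an unadjusted p of 0.05, which 3.78% of all genes did. NIA minus chow, UW minus NIA and mNIA minus NIA share the NIA animals and are not independent of each other.

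Comparisons without NIA were smaller. In UW minus chow 37 members had a lower estimate in UW, with medians of -0.22, -0.31 and -0.20, and 1 was lower at an unadjusted p under 0.05, where 1.14% of all genes were lower. For 9 members all UW animals lay below all chow animals, namely Uqcrq, Cox6c, Cox7a1, Cox7b2, Cox8b, Atp5g3, Atp5j2, Atp5l and Atp5mpl, with 2.48% of all genes in that state. In mNIA minus UW 43 members had a higher estimate in mNIA, with a median of 0.23 over the members and 0.02 over all genes, and 0 passed an unadjusted p of 0.05, which 0.986% of all genes did. In mNIA minus chow 27 members had a lower and 17 a higher estimate, with a median of -0.04, and 0 passed an unadjusted p of 0.05, which 1.38% of all genes did.

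The mean of the 3 formulas minus chow, which does not depend on the titles, was close to 0. Of 44 members 29 had a higher estimate, and the medians were -0.03 for complex III, 0.13 for complex IV and 0.07 for complex V. Without NIA replicate 4 the medians were -0.15, -0.07 and -0.07, so that those of complexes IV and V changed sign.

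**Figure D3:**
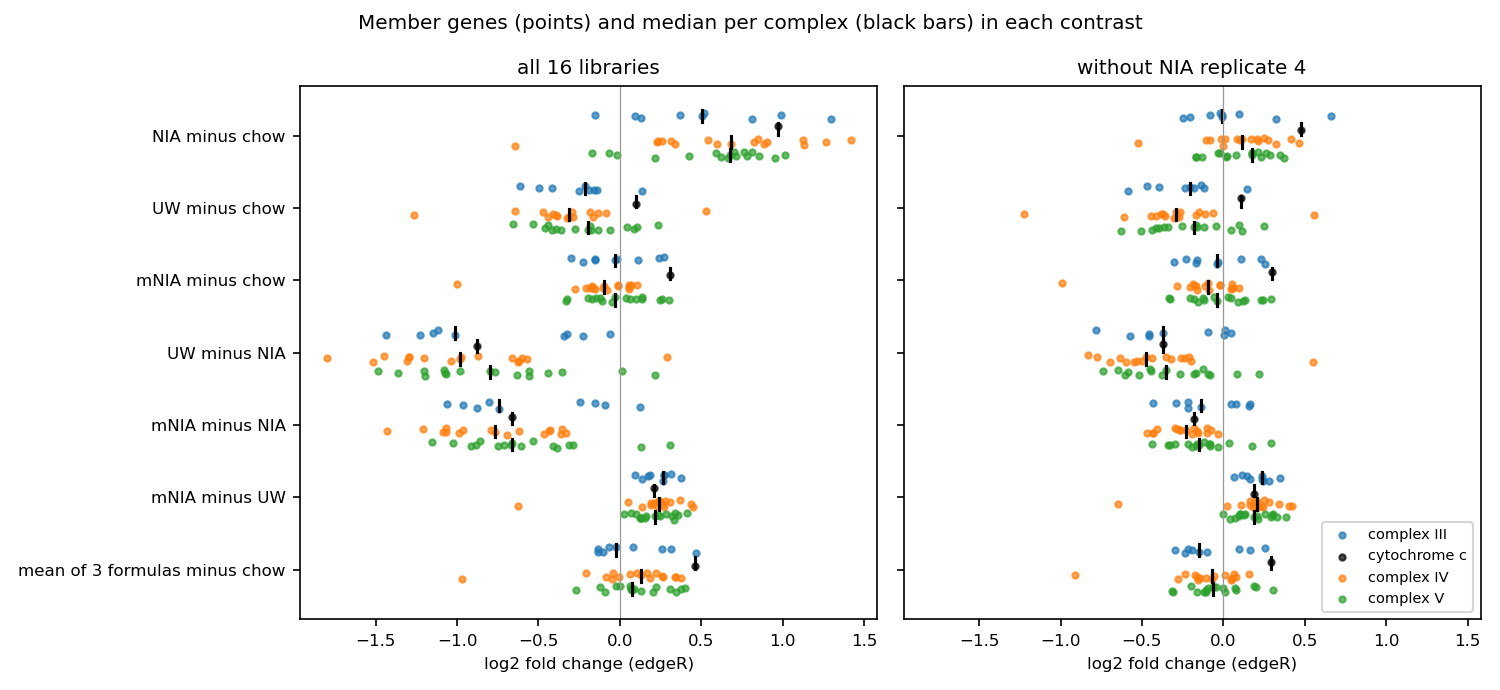
Log2 fold change of every member in each of 7 contrasts (points coloured by complex) and the median per complex (black bars), with all 16 libraries on the left and without NIA replicate 4 on the right. In NIA minus chow, UW minus NIA and mNIA minus NIA the medians lie nearer to 0 on the right.

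Other tools called some members. In UW minus NIA, DESeq2 called 14 members lower (1.98% of all genes lower), limma-voom with quality weights 6 (2.97%), and edgeR without NIA replicate 2 called 5 (1.52%). The fit without the 4 libraries of low weight, which leaves NIA with 2 animals, called 13 members lower (3.54%). These libraries were chosen by weights from the same counts, which are low where a library lies far from its diet's mean. Leaving them out thus narrows the spread within diets, and 1627 of all genes were called against 0 in the main fit. The calls and adjusted p of that fit, here and below, are therefore not separate support. Limma-voom gives these libraries less weight by weights from the same counts, and called 916 of all genes in UW minus NIA. Its calls and adjusted p, here and below, are likewise not separate support. Cox6c, Cox7a1, Cox7a2, Cox7c, Cox8b, Atp5l and Atp5mpl were among those of both DESeq2 and the fit without 4 libraries. Without NIA replicate 4 alone, and after removal of each library's trend with transcript length, 0 members were called.

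In mNIA minus NIA limma-voom called 6 members lower (6.37% of all genes lower). The fit without 4 libraries called 12 lower (9.11%) and 1 higher, Uqcrc2. In NIA minus chow Uqcrb alone was called, higher in NIA, by DESeq2 (0.83%) and by edgeR without NIA replicate 2 (0.847%). In the joint test DESeq2 called 6 members (1.3% of all genes), limma-voom 7 (14.8%), edgeR without 4 libraries 8 (9.97%) and edgeR without NIA replicate 2 called 1 (0.81%). The share of members called by limma-voom in the joint test was thus near that of all genes. In the 4 contrasts without a separate NIA mean, DESeq2 and limma-voom also called 0 members, and each called at most 4 genes in all.

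Complex III is built on the electron carriers cytochrome c1, encoded by Cyc1, and the Rieske iron-sulfur protein, encoded by Uqcrfs1, and on the core proteins Uqcrc1 and Uqcrc2. Cyc1 (chr15:76343523-76346260 on mm10) was at 729, 742, 507 and 711 CPM in chow, 376, 616, 719 and 1157 in NIA, 449, 696, 568 and 550 in UW, and 470, 633, 609 and 704 in mNIA. Uqcrfs1 (chr13:30540312-30545317) was at 920, 875, 501 and 879 CPM in chow, 570, 788, 909 and 1213 in NIA, 554, 837, 686 and 706 in UW, and 592, 792, 845 and 903 in mNIA. Both genes were lowest in chow replicate 3 within chow and highest in NIA replicate 4, and all 4 diets overlapped.

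Uqcrc1 (chr9:108936648-108949642) was at 1207, 1247, 837 and 1230 CPM in chow, 874, 871, 1212 and 1106 in NIA, 739, 1126, 1042 and 986 in UW, and 1058, 1035, 1119 and 1219 in mNIA. It was the only complex III gene whose highest library was not NIA replicate 4. The other core protein, Uqcrc2 (chr7:120635189-120659524), was at 1002, 973, 344 and 945 CPM in chow, so that chow replicate 3 held 0.35 times the mean of the other chow animals. No member had a lower ratio there.

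The small subunits of complex III stabilise it and are short transcripts. Uqcrb, the ubiquinone-binding subunit (chr13:66900576-66905351), was at 596, 556, 483 and 502 CPM in chow, 1331, 484, 722 and 2730 in NIA, 403, 525, 569 and 447 in UW, and 820, 671, 542 and 490 in mNIA. NIA replicates 1 and 4 were the only libraries above 1000 CPM, and the lowest NIA animal lay within chow. NIA minus chow was 1.30 ± 0.39 (log2, SE; edgeR adjusted p = 0.383), and 0.66 without NIA replicate 4.

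Uqcrh, the hinge protein that helps cytochrome c dock (chr4:116066965-116075071), was at 670, 656, 658 and 599 CPM in chow, 790, 699, 935 and 2714 in NIA, 513, 669, 638 and 493 in UW, and 752, 851, 598 and 591 in mNIA. All 4 NIA animals lay above all chow and all UW animals, though NIA replicate 2 exceeded the highest chow animal by less than the chow range. Uqcr10 (chr11:4701968-4704345) was at 294, 298, 337 and 259 CPM in chow and 190, 329, 358 and 1213 in NIA, so the lowest NIA animal lay below all chow animals. In UW it was at 208, 276, 214 and 191 CPM and in mNIA at 196, 386, 223 and 263.

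Cycs encodes cytochrome c, the soluble carrier between complexes III and IV (chr6:50562563-50566570). It was at 1342, 1258, 693 and 1186 CPM in chow, 2108, 1333, 1265 and 4092 in NIA, 985, 1235, 1267 and 1311 in UW, and 1664, 1214, 1454 and 1223 in mNIA. Chow replicate 3 was the lowest of all 16 and NIA replicates 1 and 4 the highest. The mean of the 3 formulas minus chow was 0.46 ± 0.29 (log2, SE; edgeR adjusted p = 0.938). By diet, the estimate for Cycs was 0.97 in NIA minus chow, 0.10 in UW minus chow and 0.31 in mNIA minus chow. That of NIA minus chow was 0.48 without NIA replicate 4 and 0.80 without chow replicate 3.

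Complex IV holds subunits with a heart and muscle form and a widespread form. In chow, per kilobase of transcript, Cox6a2 was at 1715 ± 223 CPM (SD, n = 4) and Cox6a1 at 114 ± 11.7, a ratio of 15.03 ± 0.74. Cox7a1 exceeded Cox7a2 by 2.43 ± 0.25 times and Cox8b exceeded Cox8a by 6.88 ± 1.5 times on the same scale. Cox4i2, a form of subunit 4 known from lung, was at 18.05 ± 8.7 CPM per kilobase beside 2522 ± 154 for Cox4i1. The heart forms of subunits 6a, 7a and 8 were thus above the widespread forms in chow hearts.

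The ratio within a library does not depend on its scaling. The log2 ratio of Cox6a2 to Cox6a1 CPM averaged 4.16 ± 0.07 over the 4 chow animals (SD), and the NIA, UW and mNIA animals averaged 4.59 ± 0.40, 4.03 ± 0.27 and 4.13 ± 0.38. For Cox7a1 to Cox7a2 it was 0.69 ± 0.15, 1.04 ± 0.48, 0.62 ± 0.18 and 0.75 ± 0.37 in the order chow, NIA, UW and mNIA, and for Cox8b to Cox8a it was 2.15 ± 0.30, 2.50 ± 0.42, 2.03 ± 0.11 and 2.22 ± 0.31. NIA had the highest mean and the widest spread in all 3 pairs, and its range overlapped that of every other diet. NIA replicate 4 was the highest of the 16 libraries in each pair. Without it the NIA means were 4.42 ± 0.26, 0.90 ± 0.48 and 2.36 ± 0.40 (SD, n = 3).

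**Figure D4:**
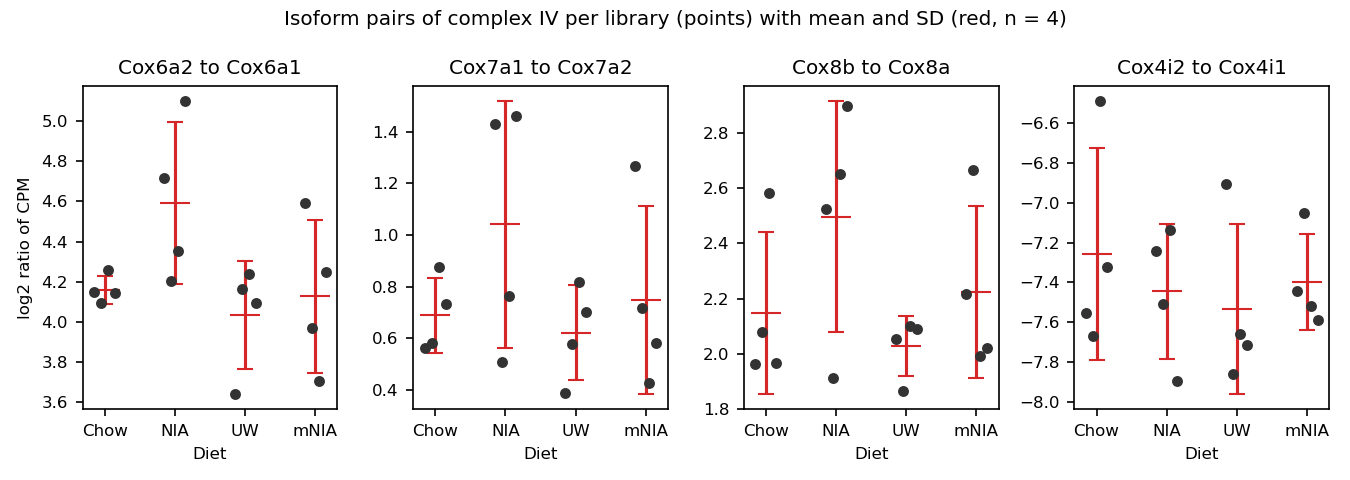
Log2 ratio of CPM between the heart and widespread forms of subunits 6a, 7a and 8, and between Cox4i2 and Cox4i1, per library (points) with the mean and SD of each diet in red (n = 4). The 4 diets overlap in every panel.

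Promoters of these isoforms are printed to set the genes of a pair side by side. The sequences are from RefSeq on GRCm38.p6 and cover the 200 bases before the gene's start, read along the gene. Capitals mark letters searched on both strands. For NRF1 the letters were a GCGC pair set 2 bases apart, with AT between them in the strict form. For GABPA they were CCGGAAG, for the ERR receptors AAGGTCA (preceded by TC in the long form) and for YY1 AAGATGG (followed by CGG in the long form). SP factors were searched as GGGCGG, the CCAAT box and the TATA box (TATAAA) by their letters, MEF2 as CTA and, after any 4 bases, TAG, and the E-box as CAGCTG. The first pair is Cox7a1 (chr7:30183971-30184170, plus strand) with Cox7a2 (chr9:79759854-79760053, minus strand), and the second is Cox8b (chr7:140900447-140900646, minus strand) with Cox8a (chr19:7217617-7217816, minus strand). Cox6a1 (chr5:115348959-115349158, minus strand) is shown for its NRF1, GABPA, SP and CCAAT letters.
Cox7a1: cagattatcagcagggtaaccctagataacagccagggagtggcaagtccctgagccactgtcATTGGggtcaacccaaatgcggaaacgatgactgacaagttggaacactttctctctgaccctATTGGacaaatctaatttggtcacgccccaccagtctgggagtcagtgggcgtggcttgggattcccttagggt
Cox7a2: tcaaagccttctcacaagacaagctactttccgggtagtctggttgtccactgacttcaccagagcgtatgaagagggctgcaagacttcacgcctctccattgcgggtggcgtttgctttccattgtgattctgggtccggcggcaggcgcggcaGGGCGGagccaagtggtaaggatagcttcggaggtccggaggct
Cox8b: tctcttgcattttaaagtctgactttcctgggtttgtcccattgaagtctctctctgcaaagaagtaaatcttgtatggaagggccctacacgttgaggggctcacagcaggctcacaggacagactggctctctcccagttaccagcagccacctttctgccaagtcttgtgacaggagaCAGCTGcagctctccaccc
Cox8a: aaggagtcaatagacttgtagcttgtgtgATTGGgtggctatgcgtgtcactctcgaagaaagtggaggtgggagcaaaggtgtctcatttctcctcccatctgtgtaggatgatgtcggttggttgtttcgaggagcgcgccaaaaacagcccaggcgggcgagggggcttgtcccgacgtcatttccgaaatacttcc
Cox6a1: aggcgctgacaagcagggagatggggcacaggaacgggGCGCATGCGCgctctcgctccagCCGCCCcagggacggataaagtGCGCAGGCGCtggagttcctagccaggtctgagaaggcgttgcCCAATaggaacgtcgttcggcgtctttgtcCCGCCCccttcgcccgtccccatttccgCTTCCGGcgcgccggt

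Cox7a1 holds CCAAT on the opposite strand at 2 places, and Cox7a2 holds GGGCGG. Cox8b holds the E-box letters, and Cox8a holds CCAAT on the opposite strand. Across or after its start, Cox8a also holds CCGGAAG on the opposite strand at 2 places, which the printed bases do not show in full. After its start Cox8b holds TATAAA, and CAGCTG again. Cox6a1 holds the GCGC pair at 2 places, once in the strict form, and CCGGAAG on the opposite strand. These are matches of letters, not binding sites.

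Cox7a1 (chr7:30184171-30186031) gave the largest estimate of any member in UW minus NIA and was at 505, 501, 648 and 499 CPM in chow, 810, 579, 761 and 3613 in NIA, 345, 462, 475 and 370 in UW, and 585, 748, 368 and 432 in mNIA. All UW animals lay below all chow and all NIA animals. UW minus NIA was -1.80 ± 0.46 (log2, SE; edgeR adjusted p = 0.139), and -0.77 without NIA replicate 4 (adjusted p = 0.482). DESeq2 gave -1.90 (adjusted p = 0.00482), and the fit without 4 libraries -0.68 (adjusted p = 0.0348).

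Its partner Cox7a2 (chr9:79755241-79759854) was at 342, 334, 354 and 300 CPM in chow, 300, 407, 448 and 1312 in NIA, 264, 310, 270 and 227 in UW, and 243, 455, 274 and 289 in mNIA. NIA replicate 1 lay at the level of the lowest chow animal, so that the NIA and chow ranges overlapped. Cox7a2l, which joins complexes III and IV into supercomplexes and is shortened in C57BL/6 mice, was at 281, 285, 246 and 250 CPM in chow, 305, 296, 299 and 648 in NIA, 233, 284, 244 and 242 in UW, and 288, 329, 276 and 250 in mNIA. All NIA animals lay above all chow and UW animals, by a margin smaller than the chow range.

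Cox6a2 (chr7:128205435-128206367) was at 1078, 1198, 1365 and 1023 CPM in chow, 1423, 1226, 1499 and 4569 in NIA, 714, 1065, 978 and 756 in UW, and 1186, 1231, 736 and 956 in mNIA. Cox6a1 (chr5:115345623-115348959) was at 60.9, 70.2, 71.3 and 57.9 CPM in chow, 54.1, 66.5, 73.5 and 133 in NIA, 57.4, 59.5, 51.8 and 44.2 in UW, and 49.1, 78.5, 56.5 and 50.4 in mNIA. NIA and UW were separate for Cox6a2 and overlapped for Cox6a1. UW minus NIA was -1.31 ± 0.37 for Cox6a2 (log2, SE; edgeR adjusted p = 0.157), and -0.63 without NIA replicate 4 (adjusted p = 0.547). DESeq2 with all libraries gave -1.39 (adjusted p = 0.0122).

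Cox8b (chr7:140898942-140900447) was at 402, 389, 547 and 357 CPM in chow, 355, 383, 624 and 1641 in NIA, 280, 348, 325 and 268 in UW, and 317, 593, 291 and 313 in mNIA. Cox8a (chr19:7215158-7217617) was at 103, 92.0, 91.3 and 91.6 CPM in chow, 61.7, 102, 99.2 and 220 in NIA, 67.4, 95.5, 75.7 and 63.1 in UW, and 68.3, 93.4, 73.2 and 77.1 in mNIA. For Cox8b all UW animals lay below all chow animals, whereas for Cox8a UW replicate 2 lay within chow.

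Cox4i1, the subunit on which ATP acts to slow the enzyme (chr8:120668225-120674210), was at 1908, 1829, 2024 and 1755 CPM in chow, 1585, 1743, 2656 and 6091 in NIA, 1318, 1798, 1655 and 1371 in UW, and 1669, 2485, 1629 and 1675 in mNIA. Its rarer form Cox4i2 (chr2:152754173-152765038) was at 10.2, 8.99, 22.6 and 11.0 CPM in chow, 10.5, 9.57, 18.9 and 25.6 in NIA, 11.0, 7.74, 8.18 and 6.53 in UW, and 9.59, 18.8, 8.90 and 8.70 in mNIA. Chow replicate 3, NIA replicates 3 and 4 and mNIA replicate 2 were the 4 highest for Cox4i2, and the same 4 libraries were the highest for Cox4i1.

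Cox5a, a subunit that faces the matrix (chr9:57521232-57532427), was at 891, 824, 713 and 782 CPM in chow, 569, 810, 904 and 1562 in NIA, 570, 797, 634 and 587 in UW, and 575, 903, 733 and 781 in mNIA. Cox6c (chr15:35931976-35938247) was at 911, 934, 1157 and 878 CPM in chow, 1590, 988, 1422 and 4475 in NIA, 653, 840, 833 and 632 in UW, and 1101, 1434, 709 and 796 in mNIA. Cox7c (chr13:86044798-86046796) was at 243, 245, 208 and 219 CPM in chow, 248, 305, 309 and 1149 in NIA, 178, 222, 223 and 194 in UW, and 233, 310, 207 and 209 in mNIA. The UW and NIA animals were separate for Cox6c and Cox7c and overlapped for Cox5a. UW minus NIA for Cox6c was -1.52 ± 0.39 (log2, SE; edgeR adjusted p = 0.139), and -0.83 without NIA replicate 4 (adjusted p = 0.482).

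Of the forms known from testis, Cox7b2 was tested with few counts. It was at 3.71, 3.21, 13.6 and 3.21 CPM in chow, 2.10, 5.74, 2.85 and 2.13 in NIA, 2.55, 1.83, 3.12 and 2.23 in UW, and 2.54, 5.12, 2.50 and 1.83 in mNIA. Its mean over the 3 formulas minus chow had the smallest p of any member in that contrast, at -0.97 ± 0.37 (log2, SE; edgeR adjusted p = 0.938), and was -0.17 without chow replicate 3. The other testis form, Cox6b2, ran from 0.47 to 3.56 CPM over all animals. The remaining complex IV genes, Cox5b, Cox6b1 and Cox7b, ran from 496 to 4473 CPM, with NIA replicate 4 highest in each.

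Complex V makes ATP on its catalytic head, where Atp5b encodes the beta and Atp5a1 the alpha subunit. Atp5b (chr10:128083307-128090389) was at 5837, 5533, 3121 and 5514 CPM in chow, 4562, 3727, 5533 and 5259 in NIA, 3467, 5647, 5430 and 4674 in UW, and 5060, 4396, 5606 and 5852 in mNIA. Atp5a1 was at 4882, 4471, 1769 and 4542 CPM in chow and between 2911 and 4994 elsewhere. Neither was highest in NIA replicate 4, and chow replicate 3 was the lowest of all 16 libraries in both. The head genes thus departed from the small subunits within the same libraries.

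The central stalk subunit epsilon, Atp5e (chr2:174461075-174464102), was at 344, 332, 560 and 303 CPM in chow, 160, 518, 486 and 1344 in NIA, 256, 305, 226 and 188 in UW, and 170, 554, 221 and 286 in mNIA. Chow replicate 3 was high here where Atp5b was low, and NIA replicate 1 was the lowest of all 16. UW minus NIA was -1.36 ± 0.48 (log2, SE; edgeR adjusted p = 0.215), and -0.64 without NIA replicate 4 (adjusted p = 0.714). It was -1.003 in limma-voom with quality weights (adjusted p = 0.0494) and -1.02 in the fit without 4 libraries (adjusted p = 0.00931).

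The rotating ring is made of 1 protein encoded by Atp5g1, Atp5g2 and Atp5g3. Atp5g3 (chr2:73908447-73911327) was at 1400, 1473, 1334 and 1452 CPM in chow, 865, 1527, 1812 and 2375 in NIA, 970, 1277, 1020 and 972 in UW, and 886, 1594, 1190 and 1355 in mNIA. Atp5g1 was at 824.5, 829.4, 669.8 and 786.3 CPM in chow and 598, 835, 947 and 2398 in NIA, and between 604 and 908 in UW and mNIA. Atp5g2 was at 187, 203, 124 and 189 CPM in chow and 120, 204, 192 and 432 in NIA, and between 137 and 190 in UW and mNIA. All UW animals lay below all chow animals for Atp5g3 only.

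As a share of the 3 ring genes' CPM, Atp5g3 gave 58.0% to 62.7% in chow, 45.6% to 61.4% in NIA, 54.9% to 56.7% in UW and 51.6% to 59.9% in mNIA. Every UW animal thus had a smaller Atp5g3 share than every chow animal, while NIA and mNIA overlapped chow. Atp5g1 gave 31.5% to 34.2% in chow and 35.3% to 36.5% in UW.

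The promoters of Atp5g3 (chr2:73911327-73911526, minus strand) and Atp5k (chr5:108434400-108434599, minus strand) are shown because Atp5g3 was the only one of the 32 members searched with the long ERR letters and Atp5k has the NRF1 letters close to its start. Sequence, strand and capitals are as above.
Atp5g3: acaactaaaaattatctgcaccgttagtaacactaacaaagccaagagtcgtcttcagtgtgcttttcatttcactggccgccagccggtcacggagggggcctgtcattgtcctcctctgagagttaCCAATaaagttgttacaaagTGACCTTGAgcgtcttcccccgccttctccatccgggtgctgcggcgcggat
Atp5k: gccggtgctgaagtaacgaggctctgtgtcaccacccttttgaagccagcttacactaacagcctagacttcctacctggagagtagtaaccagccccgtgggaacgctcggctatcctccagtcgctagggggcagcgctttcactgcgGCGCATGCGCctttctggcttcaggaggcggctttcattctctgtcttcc

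Over the 32 members with a promoter in the RefSeq table, searched from 250 bases before to 50 after the start, the strict GCGC pair of NRF1 was found in 12.5% and in 0.96% of all 27025 promoters. The pair with any 2 bases between, which includes it, was found in 21.9% of members and 6.3% of all, CCGGAAG in 28.1% and 9.08%, and CCAAT in 56.2% and 37.78%. AAGGTCA was found in 12.5% and 4.66%, in each case in a complex V gene (Atp5e, Atp5g3, Atp5k and Atp5l), and its long form, which includes it, in 3.1% and 0.41%. GGGCGG was found in 34.4% and 35.6%. Here and below, the windows of the members and of all promoters were not chosen alike. For a gene with several starts, a member's window was set at the start nearest its listed gene start. Among all promoters it was set at the start of lowest coordinate, and these promoters are not limited to the tested genes.

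TATAAA was found in 9.4% of members and 14.14% of all, CAGCTG in 6.2% and 16.23%, the MEF2 letters in 3.1% and 3.69%, AAGATGG in 6.2% and 6.46% and its long form in 0% and 0.91%. Median promoter GC content was 55.5% for the members and 52.7% for all. Members not matched in that table were Cyc1, Uqcrb, Uqcrc2, Uqcrq, Cox4i1, Cox4i2, Cox6a2, Cox6c, Atp5a1, Atp5f1, Atp5mpl and Atp5s.

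Among the membrane and peripheral stalk subunits of complex V, Atp5k, encoding subunit e, which helps ATP synthase pair into dimers, was at 309, 288, 477 and 270 CPM in chow, 374, 280, 482 and 1150 in NIA, 236, 297, 255 and 202 in UW, and 283, 460, 240 and 254 in mNIA. Atp5mpl, a small proteolipid of the membrane part, was at 282, 282, 380 and 266 CPM in chow, 238, 375, 451 and 1285 in NIA, 218, 231, 207 and 181 in UW, and 194, 414, 224 and 222 in mNIA. All UW animals lay below all NIA animals for Atp5mpl and not for Atp5k.

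Atp5j, coupling factor 6, was at 709, 684, 680 and 641 CPM in chow, 869, 666, 949 and 2999 in NIA, 505, 676, 648 and 560 in UW, and 718, 893, 625 and 673 in mNIA. Atp5h, a peripheral stalk subunit, was at 1048, 1048, 1232 and 967 CPM in chow, 1577, 859, 1664 and 3429 in NIA, 713, 986, 1048 and 805 in UW, and 1334, 1436, 977 and 978 in mNIA. Both overlapped between all diets. Atp5mpl had -1.49 ± 0.40 in UW minus NIA (log2, SE; edgeR adjusted p = 0.145), and -0.74 without NIA replicate 4 (adjusted p = 0.537). It had -1.57 in DESeq2 (adjusted p = 0.0117) and -0.96 without 4 libraries (adjusted p = 0.00536).

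The remaining complex V genes, Atp5c1, Atp5d, Atp5f1, Atp5j2, Atp5l and Atp5o, ran from 294 to 3886 CPM, and Atp5s from 16.3 to 46.2 CPM. Each was highest in NIA replicate 4. Atp5f1 and Atp5c1 were low in chow replicate 3, at 0.49 and 0.54 times the mean of the other chow animals. The remaining complex III genes were Uqcr11, at 260 to 1164 CPM, and Uqcrq, at 250 to 1242 CPM.

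In some libraries the level of a member went with the length of its transcript. The median annotated transcript length was 625 bases for 43 members (Atp5o was not matched) and 2062 bases for all genes. In chow replicate 3 the Spearman correlation between a member's level and its length was -0.65, in NIA replicate 4 -0.48, in mNIA replicate 2 -0.54 and in NIA replicate 3 -0.44. In mNIA replicate 3 it was 0.69 and in UW replicate 4 0.59, and over the 16 libraries it was negative in 5 and positive in 11, with 0.17 in NIA replicate 1 and 0.14 in UW replicate 1. These are descriptions over 43 genes that share 1 library and its depth, and the corresponding values over all genes were -0.02, -0.41, -0.17, -0.17, 0.21 and 0.40 in the order named. With the length of all exons together, the members' values were -0.51, -0.32, -0.38, -0.17, 0.50 and 0.46 in that order.

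In chow replicate 3 the 9 members over 1000 bases, among them Uqcrc2, Atp5a1, Atp5b and Cycs, had a median level of -0.64, and the 22 members at or under the median length had 0.21. In NIA replicate 4 the same 2 groups had 1.17 and 1.74. By their median, the longer members were below their own mean in the chow animal and above it in the NIA animal, where Atp5a1 was an exception at -0.18. With the length trend of each library removed, the median of NIA minus chow was 0.45 over the members (0.67 before) and that of UW minus NIA was -0.66 (-0.98 before). With transcript GC content the members' correlation ran from -0.43 in NIA replicate 1 to 0.43 in chow replicate 3 over the 16 libraries, with a median of 0.07. Over all genes those 2 libraries had -0.41 and 0.25. The part of length and GC content in the diet estimates beyond this was not tested.

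**Figure D5:**
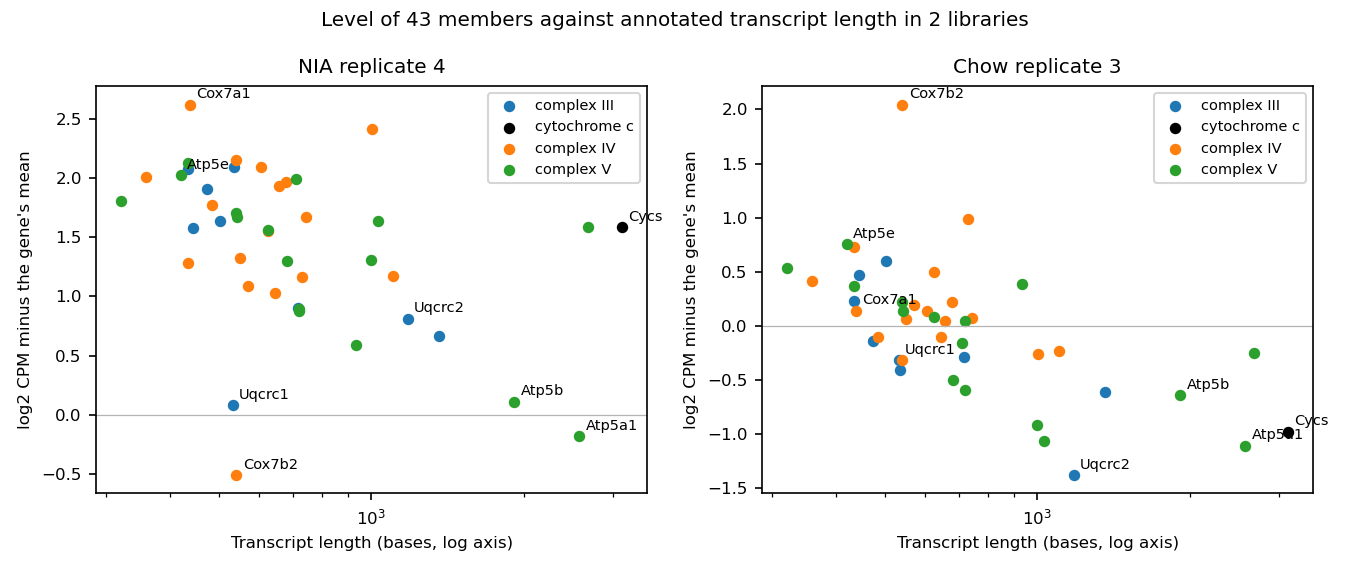
Level of 43 members (log2 CPM minus the gene's mean) against annotated transcript length in bases on a log axis, in NIA replicate 4 (left) and chow replicate 3 (right), coloured by complex. Long genes lie low on the right, and on the left all but Atp5a1 and Cox7b2 lie above 0; Uqcrc1 is plotted at 533 bases, the median of its annotated transcripts, though its exons together cover 4135 bases.

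Of the other genes examined, complex I and the ribosomal proteins were high in the same library. Complex I, which feeds electrons into the chain, had 38 tested subunits with 35 higher estimates in NIA minus chow, a median log2 fold change of 0.64 and 0 called in either direction. Its level in NIA replicate 4 was 1.52, and -0.52 to 0.38 elsewhere, with a mean of 0.08 ± 0.27 over the other 3 NIA animals (SD). Cytosolic ribosomal proteins, which serve protein synthesis and not respiration, had 80 of 83 higher estimates, a median of 0.73 and a level of 1.62 in NIA replicate 4 beside 0.11 ± 0.33 over the other 3 NIA animals. In UW minus NIA, 36 complex I and 81 ribosomal protein genes had lower estimates, with medians of -0.98 and -0.90. In mNIA minus NIA 34 and 80 were lower, with medians of -0.69 and -0.73. In UW minus chow 35 and 76 were lower, with medians of -0.27 and -0.17. In mNIA minus UW 38 and 80 were higher, with medians of 0.25 and 0.17. The direction of these contrasts was thus not particular to complexes III, IV and V. Complex II had a median of 0.29 over 4 genes in NIA minus chow. Its flavoprotein gene Sdha was at 953.8 CPM in NIA replicate 4, below the chow mean of 1213. The other complex II genes, Sdhb, Sdhc and Sdhd, were at 1544, 838.6 and 1067 CPM there, above chow means of 805, 417 and 339. Each of these was highest in NIA replicate 4 among all libraries. The genes of complex II were named after their values were seen.

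Assembly factors of complexes III, IV and V had medians of 0.39, 0.38 and 0.63 in NIA minus chow over 6, 22 and 6 tested genes, with 0 called. These medians are from all 16 libraries. The 10 regulators of mitochondrial gene expression had 7 higher estimates, a median of 0.10 and 0 called. Ppargc1a, the coactivator that drives mitochondrial biogenesis, was at 103, 91.2, 39.1 and 84.3 CPM in chow, 223, 82.9, 60.4 and 75.4 in NIA, 89.0, 127, 133 and 141 in UW, and 170, 62.6, 153 and 125 in mNIA. The mean of the 3 formulas minus chow was 0.59 for Ppargc1a, with a 95% interval of -0.10 to 1.28 (edgeR adjusted p = 0.938). For the nuclear receptor Esrra it was -0.06 (-0.46 to 0.34) and for the mitochondrial transcription factor Tfam 0.18 (-0.33 to 0.70).

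Markers of the heart muscle cell itself did not move together in NIA replicate 4. Myl2, the ventricular myosin light chain, was at 34380 CPM there and at 7700 to 15030 in the other libraries. Myh6, the main myosin heavy chain of the mouse heart, was at 5357 CPM there, the lowest of the 16, and at 9662 to 39860 elsewhere. Of the other cardiomyocyte markers, Tnni3, Pln and Actc1 were also highest of the 16 there, at 11080, 14590 and 12910 CPM. Tnnt2 was at 15940 CPM, below NIA replicate 1 only, at 18090. Ryr2 was lowest of the 16 there, at 470 CPM. Markers of other cell types also split in NIA replicate 4. Pecam1, Cdh5, Kdr and Tie1 of endothelium were lowest of the 16 there, at 127, 95.3, 85.4 and 30.6 CPM. So were Col1a1, Col1a2 and Pdgfra of fibroblasts, and Myh11 and Pdgfrb of smooth muscle and pericytes. Fabp4, Dcn and Rgs5 of the same lists were highest of the 16, at 2142, 908 and 1041 CPM. Acta2 and Tagln of the smooth muscle and pericyte list were neither. The part of these markers in the level of the respiratory genes was not tested.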

How the data were processed

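RNA from 16 ventricle samples was sequenced as poly-A selected, strand-specific 75-base single reads, per the labels' protocols. The values used are expected counts per gene deposited by the authors; per the submitters' processing notes, BWA, DESeq2 and mm10 were used, and the versions, counting tool and gene models are not given in the sources used here. Between 36.4% and 72.7% of the members' values per library were not whole (tolerance 0.01), so reads shared with similar genes or pseudogenes may have been split, and levels within a family are uncertain to that extent. Values were rounded to whole counts. Depth limits the precision of low genes most in NIA replicate 4.

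Genes were kept by filterByExpr (13381 genes, 75.4%), scaled by TMM and tested in edgeR 4.0.16 under R 4.3.3 with a 2-sided quasi-likelihood test, 1 mean per diet over all 16 libraries and Benjamini-Hochberg adjustment over all tested genes at 0.05. CPM values are TMM-scaled, and log2 CPM used a prior count of 2. Per-kilobase levels used the median protein-coding transcript of GENCODE vM21. Gene positions were copied from the table (mm10); its ends lay 1 base past those of RefSeq for 34 of 42 matched members. Alternatives used DESeq2 1.42.0, limma 3.58.1, other scaling and filters, a replicate block, removal of the length trend and left-out libraries. The model was tested on simulated data. The replicate numbers did not pair the samples.

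The members and lists, and the rule for which members are given in every library (19 fixed members, the 3 smallest p of the joint test per complex and the smallest p per contrast), were chosen with earlier results of these data known. Other members are given by range, and Uqcrc2, Atp5a1 and single values were named after their values were seen.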

Additional observations from a re-analysis of the deposited data

Results flagged for a closer look

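For the 29 members given in every library and for the 3 complex levels and 4 isoform ratios, 144 groups of 4 were checked for a single library far from the other 3, of which chance alone flags about 1 in 20, and 23 stood out. Of these, 9 were chow replicate 3, 8 were NIA replicate 4, 4 were mNIA replicate 2, 1 was chow replicate 1 and 1 was UW replicate 2. The groups are not independent, since all genes share the same libraries.

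In chow, replicate 3 was low for Cyc1 (507.2 CPM, others 710.7 to 741.7), Uqcrfs1 (500.6 CPM, others 875 to 920.3), Uqcrc1 (837.1 CPM, others 1207 to 1247) and Atp5b (3121 CPM, others 5514 to 5837). The same library was high for Cox4i2 (22.58 CPM, others 8.991 to 10.98), Cox7a1 (648.2 CPM, others 499.2 to 505.3), Atp5e (559.7 CPM, others 303.2 to 344), Atp5mpl (380 CPM, others 265.9 to 282.3) and Cox7b2 (13.55 CPM, others 3.21 to 3.707). Chow replicate 1 was high for Cox8a (103 CPM, others 91.31 to 91.99).

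In NIA, replicate 4 was high for Cox6a2 (4569 CPM, others 1226 to 1499), Cox7a1 (3613 CPM, others 579.2 to 809.7), Cox7a2 (1312 CPM, others 300.4 to 447.6), Cox7a2l (648 CPM, others 295.7 to 304.6), Cox7c (1149 CPM, others 248.4 to 309.2), Uqcr10 (1213 CPM, others 190.1 to 358.3), Uqcrh (2714 CPM, others 698.9 to 935.2) and Atp5j (2999 CPM, others 665.7 to 949.3). In mNIA, replicate 2 was high for Cox4i1 (2485 CPM, others 1629 to 1675), Cox4i2 (18.77 CPM, others 8.697 to 9.594), Cox8b (592.8 CPM, others 291.1 to 317.2) and Atp5mpl (414.4 CPM, others 194.4 to 223.9). In UW, replicate 2 was high for Atp5g3 (1277 CPM, others 969.7 to 1020).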

How the results depend on the processing

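Over the other settings listed in the methods, 775 member counts, medians and complex levels stayed within 1.5 times the count or within 1 SD of the value, and 15 moved. For medians the SD was that of the library levels in the diets compared, NIA replicate 4 included, and was 0.57 to 0.62 where NIA was set against 1 diet. The rule is therefore lenient to leaving that animal out. In NIA minus chow, medians of 0.51, 0.68 and 0.68 counted as kept at -0.01, 0.12 and 0.18 without it. Of the 775, 22 medians changed sign, all of them in mNIA minus chow, in the mean of the 3 formulas minus chow or, for complex III without NIA replicate 4 (-0.01), in NIA minus chow. Of single-gene values 628 kept their call, 19 became significant, 3 moved and 1 changed sign. DESeq2 called 1 member in NIA minus chow, 14 in UW minus NIA and 6 in the joint test, where edgeR called 0. Limma-voom called 6 in UW minus NIA, 6 in mNIA minus NIA and 7 in the joint test. Without the 4 libraries of low weight 13, 13 and 8 were called in the same 3 tests, the complex III median was -0.22 in mNIA minus chow and -0.29 in UW minus NIA, and Atp5f1 in NIA minus chow was -0.14 against a positive estimate with all libraries; the cause was not tested. Leaving out single libraries gave 0 to 1 calls in NIA minus chow, 0 to 5 in UW minus NIA and 0 to 1 in the joint test, and a complex III median between -1.30 and -0.37 in UW minus NIA. Per kilobase of all exons the chow ratio of Cox6a2 to Cox6a1 was 18.5 and that of Cox7a1 to Cox7a2 was 2.85.

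Samples with the same replicate number in different diets had correlations of -0.58 to 0.61 (24 pairs, median -0.08), 9 were over 0.1, and 4 of 16 libraries correlated best with their own number. The numbers were therefore not treated as pairs. With the replicate number as a block, 0 members were called in each contrast and in the joint test.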
